A study of Mus musculus with 12 samples.

Results

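The genes described here are 8 transcription factors of the developing heart: the homeodomain genes Nkx2-5, Isl1, Irx3, Irx4 and Hopx, and the basic helix-loop-helix (bHLH) genes Hand1, Hand2 and Mesp1. Each was taken from the one gene-level row that carries its symbol and no other, so the 8 genes are 8 of 23332 gene-level rows and of the 14847 symbols that have such a row. The cells were mouse embryonic stem (ES) cells differentiating towards cardiomyocytes, profiled on Affymetrix Mouse Exon 1.0 ST arrays. Each of 3 stages had 2 samples: undifferentiated ES cells (day 0), embryonic bodies, which are ES cell aggregates (day 7), and cardiac bodies (day 14). All stages were grown in serum-supplemented DMEM, the labels list no treatment, and they name neither the ES line nor whether the samples of a stage came from separate cultures. Every p-value below thus rests on the scatter between samples, and that scatter could be purely technical.

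Homeodomain proteins bind DNA through a helix that reads short AT-rich elements, and bHLH proteins bind the E-box as dimers, usually with a ubiquitous E protein. In the mouse embryo Mesp1 is switched on for a short time in the mesoderm that will give rise to the heart. Isl1 marks the second heart field, the progenitor pool that adds the outflow tract and right ventricle, and Nkx2-5 marks committed cardiac cells and acts with GATA and T-box factors. Hand1 and Hand2 shape the ventricles, Irx4 marks the ventricle, Irx3 acts in the conduction system, and Hopx, whose homeodomain does not bind DNA, works through serum response factor.

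Values are log2 signals. Gene-level sample medians lay between 6.47 and 6.79, and correlations across rows were 0.973 to 0.978 within a stage and 0.929 to 0.958 between stages. The stage labels were checked against marker lists. The 11 measured cardiomyocyte markers averaged 5.85 and 5.87 in the samples of day 0, 6.30 and 6.39 at day 7, and 11.44 and 11.24 at day 14. Of these, 3 were called higher and none lower at day 7 than at day 0, against 5.35% of all rows called higher. The 19 measured pluripotency markers averaged 10.29 and 10.40, then 7.74 and 7.53, then 9.48 and 9.87, so the cardiac bodies carried high levels of both lists. The samples are whole bodies of mixed cells, in which fewer cells of a type and less RNA per cell cannot be told apart.

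At day 7 Isl1 and Hand2 had risen over ES cells. At day 14 Nkx2-5, Hand2, Irx4 and Hopx stood above ES cells, and Nkx2-5, Irx4 and Hopx also stood above day 7. Of the 8 factors, 2 rose and none fell between day 0 and day 7 (limma, adjusted p under 0.05), against 5.35% of all rows called higher and 5.28% lower (10.6% in all). Between day 0 and day 14, 4 rose and none fell, against 2.63% of all rows higher and 0.686% lower (3.32% in all). Between day 7 and day 14, 3 rose and none fell, against 2.11% higher and 1.02% lower (3.13% in all). The median changes of the 8 were 0.90, 1.55 and 0.33 on the log2 scale, beside -0.02, -0.03 and 0.01 over all rows. The 3 comparisons share samples and are not independent of each other. Each change is given as a difference in log2 signal ± its standard error from limma, with n = 2 per stage.

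**Figure D1:**
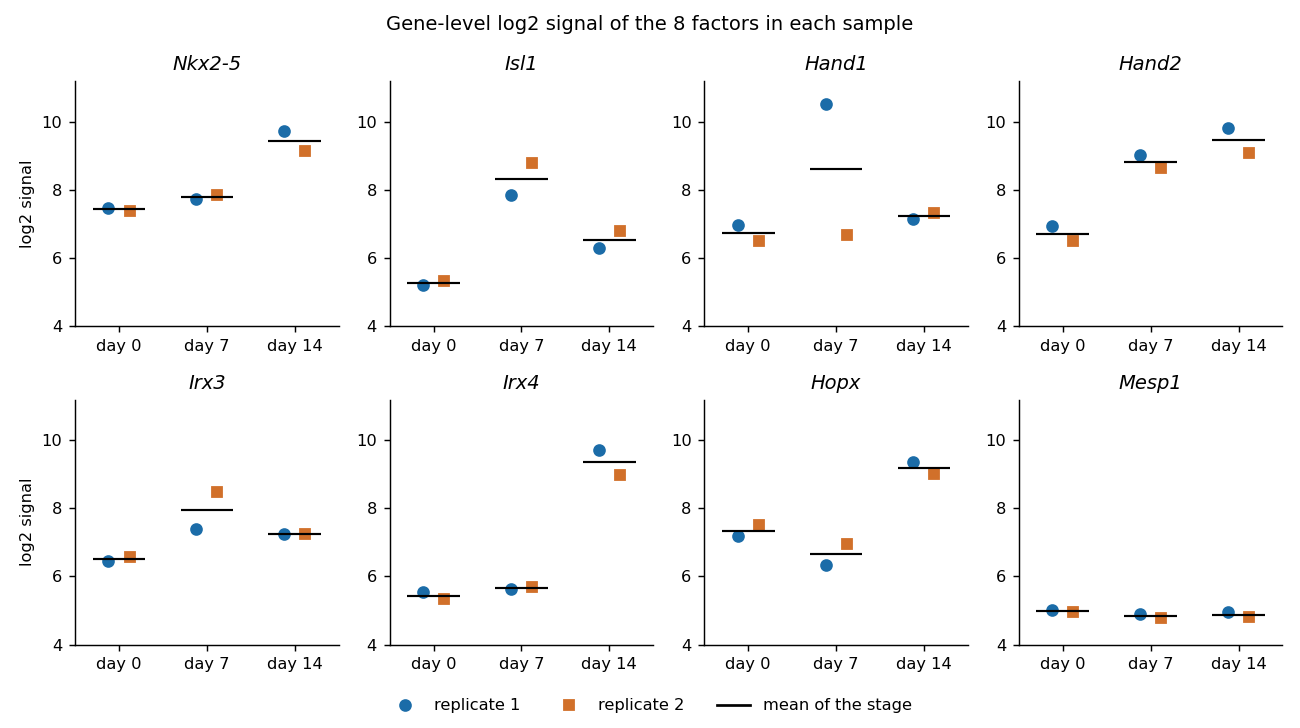
Gene-level log2 signal (vertical axis) of each factor at day 0, day 7 and day 14. Circles are replicate 1, squares replicate 2 and bars the mean of the stage. Irx4, Nkx2-5 and Hopx are highest at day 14, Isl1 is highest at day 7, Mesp1 stays between 4.77 and 5.02, and Hand1 has 1 high sample at 10.53.

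Promoter sequence is given for the factors that rose, so that their upstream regions can be set side by side. Each run is the 250 bases before the RefSeq transcription start on GRCm38.p6, 5′ to 3′ on the gene's strand. Capitals mark matches to the E-box, CANNTG, which bHLH proteins bind, or to a GATA site, AGATAA or its reverse complement. The array files were built on mm9, so these positions belong to the RefSeq sequence only. Hopx has 2 annotated starts, and both are shown.
Nkx2-5, chr17:26841566-26841815, minus strand: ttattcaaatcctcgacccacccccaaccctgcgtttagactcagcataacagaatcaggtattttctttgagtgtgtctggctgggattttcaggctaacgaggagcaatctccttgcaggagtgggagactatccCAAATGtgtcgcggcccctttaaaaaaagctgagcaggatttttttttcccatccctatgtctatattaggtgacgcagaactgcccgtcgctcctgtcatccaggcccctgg
Isl1, chr13:116309689-116309938, minus strand: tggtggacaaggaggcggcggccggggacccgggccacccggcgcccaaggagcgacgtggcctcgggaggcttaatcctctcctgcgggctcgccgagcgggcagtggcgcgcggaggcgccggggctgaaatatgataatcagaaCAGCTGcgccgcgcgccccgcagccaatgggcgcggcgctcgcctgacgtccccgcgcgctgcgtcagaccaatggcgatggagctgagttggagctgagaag
Hand2, chr8:57320733-57320982, plus strand: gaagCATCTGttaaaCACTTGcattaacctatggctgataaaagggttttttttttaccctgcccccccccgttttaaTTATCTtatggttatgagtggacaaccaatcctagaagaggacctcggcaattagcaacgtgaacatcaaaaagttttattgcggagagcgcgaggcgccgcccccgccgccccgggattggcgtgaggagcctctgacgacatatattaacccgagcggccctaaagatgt
Irx4, chr13:73260247-73260496, plus strand: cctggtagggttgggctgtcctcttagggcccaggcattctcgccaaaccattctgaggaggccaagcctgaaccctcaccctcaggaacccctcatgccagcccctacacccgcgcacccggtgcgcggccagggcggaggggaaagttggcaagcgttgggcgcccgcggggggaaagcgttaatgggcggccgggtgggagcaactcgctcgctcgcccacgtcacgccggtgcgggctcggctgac
Hopx start 1, chr5:77115124-77115373, minus strand: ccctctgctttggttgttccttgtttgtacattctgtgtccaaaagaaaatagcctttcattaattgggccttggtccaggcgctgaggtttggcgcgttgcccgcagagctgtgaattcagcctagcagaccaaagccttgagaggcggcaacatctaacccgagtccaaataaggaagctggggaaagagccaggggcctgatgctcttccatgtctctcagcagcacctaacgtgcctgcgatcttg
Hopx start 2, chr5:77095268-77095517, minus strand: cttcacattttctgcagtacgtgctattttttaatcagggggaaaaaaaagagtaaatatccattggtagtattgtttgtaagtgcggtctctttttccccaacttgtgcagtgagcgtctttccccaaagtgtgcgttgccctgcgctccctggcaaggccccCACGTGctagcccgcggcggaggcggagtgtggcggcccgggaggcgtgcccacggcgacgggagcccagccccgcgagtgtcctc

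RefSeq windows were matched for 7 of the 8 factors, which gives 8 windows. The E-box stood in 5 of the 8 windows and in 66.2% of all 32851 promoter windows of this length. The GATA site stood in 1 of the 8, that of Hand2, and in 9.99% of all. A core element of Nkx2-5, TNAAGTG, and the TATA box, TATAAA, were found in 0 of the 8, against 10.1% and 12.4% of all windows. Both strands were searched, and no matches in these windows overlapped. The Isl1 and Irx4 windows were rich in G and C, at 71.2% and 68.8%, and those of Nkx2-5 and Hand2 both stood at 49.2%, beside a median of 52.4% over all windows. A match is a string of letters and no measured site.

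Mesp1, the bHLH factor of the earliest cardiac mesoderm, was at 5.02 and 4.95 in ES cells, 4.89 and 4.77 in embryonic bodies, and 4.94 and 4.80 in cardiac bodies. All 6 values lay within 0.25 of each other, and its mean of 4.90 was just under the 25th percentile of all row means. Its change was -0.15 ± 0.17 from day 0 to day 7 (adjusted p = 0.653) and 0.04 ± 0.17 from day 7 to day 14 (adjusted p = 0.939). With samples at day 0 and day 7 only, no value falls between these days, when the gene is known to act. Its paralogue Mesp2, which acts in somite formation, changed by -0.54 ± 0.25 from day 0 to day 7 (adjusted p = 0.259).

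Isl1, the LIM-homeodomain factor of the second heart field, was at 5.21 and 5.32 in ES cells, 7.84 and 8.80 in embryonic bodies, and 6.29 and 6.78 in cardiac bodies. The 3 stages did not overlap, and both day 7 samples were the highest. It rose by 3.05 ± 0.36 from day 0 to day 7, an 8.29-fold difference (adjusted p = 0.0086). The later change was -1.78 ± 0.36 from day 7 to day 14 (95% interval -2.67 to -0.89, adjusted p = 0.0691), and day 14 stood 1.27 ± 0.36 above day 0 (adjusted p = 0.151). Without ES cell replicate 1 or 2 the adjusted p of the rise was 0.0540 and 0.0517. With the mean of its exon-level probe sets in place of the gene-level row, the difference from day 7 to day 14 was -1.84 ± 0.30 (adjusted p = 0.0108) and that from day 0 to day 14 was 1.32 ± 0.30 (adjusted p = 0.0366), both past the threshold. In the same exon-level test 1 of the 8 factors fell from day 7 to day 14, Isl1, against 2.87% of 16358 symbols.

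Nkx2-5, the NK2-type homeodomain factor of committed cardiac cells, was at 7.48 and 7.37 in ES cells, 7.75 and 7.86 in embryonic bodies, and 9.72 and 9.13 in cardiac bodies. Both day 14 samples lay above all 4 earlier ones, and the day 7 samples lay just above those of day 0. It rose by 2.00 ± 0.24 from day 0 to day 14 (adjusted p = 0.0155), and by 1.63 ± 0.24 from day 7 to day 14, which is 3.08-fold (adjusted p = 0.0325). From day 0 to day 7 its difference was 0.38 ± 0.24 (95% interval -0.22 to 0.98, adjusted p = 0.404). The adjusted p from day 0 to day 14 was 0.0916 and 0.100 without ES cell replicate 1 or 2 and 0.0605 without cardiac body replicate 1. From day 7 to day 14 the call was lost with any 1 sample left out (adjusted p from 0.0516 to 0.141).

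Hand2, a bHLH factor of the right ventricle and the second heart field, was at 6.93 and 6.49 in ES cells, 9.03 and 8.63 in embryonic bodies, and 9.82 and 9.09 in cardiac bodies. The day 7 and day 14 samples lay above those of day 0 with a wide gap, and lay close to each other. It rose by 2.13 ± 0.32 to day 7, which is 4.37-fold (adjusted p = 0.0177), and by 2.75 ± 0.32 to day 14, which is 6.72-fold (adjusted p = 0.0141). The difference between day 7 and day 14 was 0.62 ± 0.32 (95% interval -0.18 to 1.42, adjusted p = 0.406). The day 7 call was lost without either ES cell sample (adjusted p = 0.0598 and 0.0887) or either day 7 sample (0.0878 and 0.0610). The day 14 call was lost without either ES cell sample (0.0648 and 0.0888) or cardiac body replicate 1 (0.0666).

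Hand1, the bHLH factor of the outer ventricle and, in mouse embryos, of yolk sac mesoderm and trophoblast, was at 6.98 and 6.50 in ES cells, 10.53 and 6.69 in embryonic bodies, and 7.13 and 7.33 in cardiac bodies. A single sample, embryonic body replicate 1, was high, and the other day 7 sample lay within the ES cell range. The day 7 mean of 8.61 (standard deviation 2.72) therefore stands for neither sample, and the difference from day 0 was 1.87 ± 1.17 (95% interval -1.03 to 4.77, adjusted p = 0.390). Left out in turn, embryonic body replicate 1 gave a difference of -0.05 and replicate 2 one of 3.79 (adjusted p = 0.0159). Day 14 differed from day 0 by 0.49 ± 1.17 (adjusted p = 0.898) and from day 7 by -1.38 ± 1.17 (adjusted p = 0.628). Without embryonic body replicate 1 the difference from day 7 to day 14 was 0.55, and without replicate 2 it was -3.30 (adjusted p = 0.0374). At the exon level, with only ES cells and cardiac bodies in the fit, Hand1 stood 0.82 ± 0.20 higher at day 14 than at day 0 (adjusted p = 0.0477). The gene-level fit of the same samples gave 0.49 ± 0.25 (adjusted p = 0.438).

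Irx4, the Iroquois homeodomain factor of the ventricle, was at 5.55 and 5.33 in ES cells, 5.63 and 5.70 in embryonic bodies, and 9.73 and 8.98 in cardiac bodies. The 4 earlier samples lay together, and both cardiac body samples stood far above them. It rose by 3.91 ± 0.28 from day 0 to day 14, which is 15.1-fold (adjusted p = 0.00421), and by 3.69 ± 0.28 from day 7 to day 14, which is 12.9-fold (adjusted p = 0.00616). These sizes ranked 76 and 69 among 23332 rows, and its difference at day 7 was 0.23 ± 0.28 (adjusted p = 0.683). Irx4 was called in both comparisons under each of the 13 alternatives tried, left-out samples and exon-level means included.

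Irx3, the Iroquois factor of the conduction system, was at 6.46 and 6.56 in ES cells, 7.40 and 8.49 in embryonic bodies, and 7.26 and 7.25 in cardiac bodies. Both later stages lay above ES cells, and the day 7 samples differed by 1.08. The difference at day 7 was 1.43 ± 0.36 (adjusted p = 0.0658) and that at day 14 was 0.74 ± 0.36 (adjusted p = 0.377). The day 7 difference was past the threshold in 3 of the 13 alternatives tried. These were low rows left out (limma, adjusted p = 0.0426), exon-level means (1.86 ± 0.36, adjusted p = 0.0113), and embryonic body replicate 1 left out (1.97). It was not called with only ES cells and embryonic bodies fitted (adjusted p = 0.109), median centring (0.0622) or quantile normalization (0.0659). Without embryonic body replicate 2 the difference was 0.89. From day 7 to day 14 Irx3 differed by -0.69 ± 0.36 (limma, adjusted p = 0.410), and by -0.15 without embryonic body replicate 2. Irx3 and Irx4, members of one family, thus had their highest samples in different stages, for Irx3 without a call between day 7 and day 14.

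Hopx was at 7.18 and 7.50 in ES cells, 6.34 and 6.96 in embryonic bodies, and 9.35 and 9.01 in cardiac bodies. The 3 stages did not overlap, with day 7 lowest and day 14 highest. It rose by 1.84 ± 0.28 from day 0 to day 14, which is 3.58-fold (adjusted p = 0.0330), and by 2.53 ± 0.28 from day 7 to day 14, which is 5.78-fold (adjusted p = 0.0151). Its difference from day 0 to day 7 was -0.69 ± 0.28 (95% interval -1.39 to 0.01, adjusted p = 0.201). Without ES cell replicate 1 or 2 or cardiac body replicate 1 or 2 the adjusted p from day 0 to day 14 was 0.169, 0.112, 0.170 and 0.0988. From day 7 to day 14 it was 0.0628 without embryonic body replicate 1, and 0.0918 and 0.0634 without cardiac body replicate 1 and 2. With the replicate number as a block, the adjusted p from day 0 to day 14 was 0.0528.

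**Figure D2:**
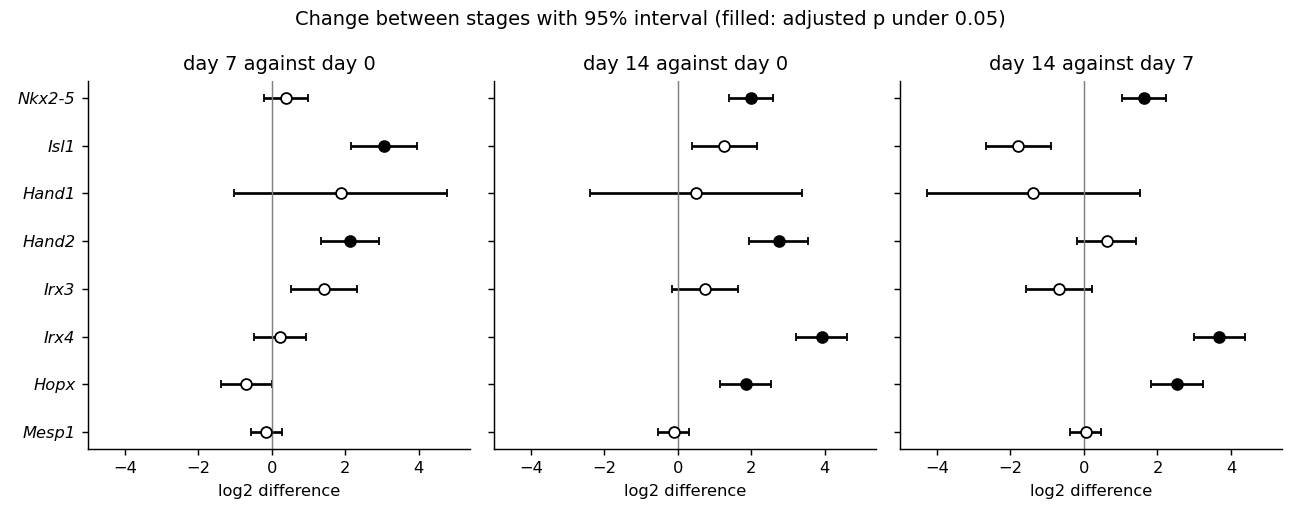
Log2 difference between stages (horizontal axis) for each factor, with the 95% interval of the limma fit. Filled points have an adjusted p under 0.05. Irx4 lies furthest right in both comparisons with day 14, at 3.91 and 3.69, and Hand1 has the widest intervals.

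The exon level measures the same arrays through 57 single probe sets of the 8 factors and is no independent replicate. With the means of these probe sets, 3 factors rose from day 0 to day 7 (Isl1, Hand2 and Irx3), against 9.18% of symbols called higher and 9.98% lower (19.2% in all). From day 0 to day 14, 5 rose (Nkx2-5, Isl1, Hand2, Irx4 and Hopx), against 6.22% higher and 2.3% lower (8.52% in all). From day 7 to day 14, 3 rose (Nkx2-5, Irx4 and Hopx) and Isl1 fell, against 5.87% higher and 2.87% lower (8.75% in all). The day 14 calls of Nkx2-5, Hand2 and Irx4 over day 0 were kept in each of the 6 fits that left out 1 sample, with 3 to 7 factors called in these fits, the fewest without ES cell replicate 1. These exon-level calls depended on single samples for other factors. That of Isl1 from day 0 to day 14 was lost without either ES cell sample or either cardiac body sample (adjusted p from 0.0695 to 0.183), and that from day 7 to day 14 without cardiac body replicate 1 (0.0624). The Isl1 call from day 0 to day 14 was also lost under quantile normalization (0.0560) and with the median of the probe sets in place of the mean (0.0713). Irx3 lost its day 7 call without either ES cell sample (0.0575 and 0.0586), and Hopx its call from day 0 to day 14 without ES cell replicate 1 (0.0502). The 7 came from ES cells and cardiac bodies fitted alone, and leaving out a day 7 sample gives that same fit for this comparison.

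Probe sets of most factors moved together, those of Mesp1 less so. Those of Irx4 were split from day 0 to day 7, with 7 means higher and 3 lower. All 11 probe sets of Isl1 were higher in both day 7 samples than in both ES cell samples, and all 11 were lower again in both day 14 samples, where 24.8% and 20.6% of all probe sets separated in these directions. Every probe set of Irx4 (10), Nkx2-5 (7) and Hopx (5) was higher in both cardiac body samples than in all 4 earlier samples. Over all probe sets, 21.9% separated upwards from day 0 and 25.8% from day 7, and the share that did both was not counted. For Irx3, 9 of 10 separated upwards from day 0 to day 7, and for Hand2 all 4. For Hand1, all 5 had a higher mean at day 7 than at day 0 and a lower one at day 14 than at day 7. The share of all probe sets with such means was not counted. The samples of Hand1 separated upwards in 3 of 5 from day 0 to day 7, and downwards in 1 of 5 from day 7 to day 14. For Mesp1, 2 of 5 separated upwards and 1 downwards from day 7 to day 14. The sizes differed along each gene. In Isl1 the rise to day 7 ran from 0.92 to 5.44, and the lowest belonged to probe set 5063364, whose signal stayed between 1.40 and 2.50. In Irx4 the rise to day 14 ran from 0.73 to 4.70.

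In Nkx2-5 the rise to day 14 was largest in probe set 4623088, which was at 5.56 and 6.98 in ES cells, 7.69 and 7.88 in embryonic bodies, and 11.34 and 10.91 in cardiac bodies. Its change of 4.85 compares with 1.32 for the smallest of the gene. In Hand2 probe set 5601672 was at 7.52 and 7.05 in ES cells and 7.66 and 7.10 in cardiac bodies, a change of 0.09, while the other 3 changed by 3.16 to 3.80. Positions of probe sets along the transcripts are not used here, so they are named by number only.

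**Figure D3:**
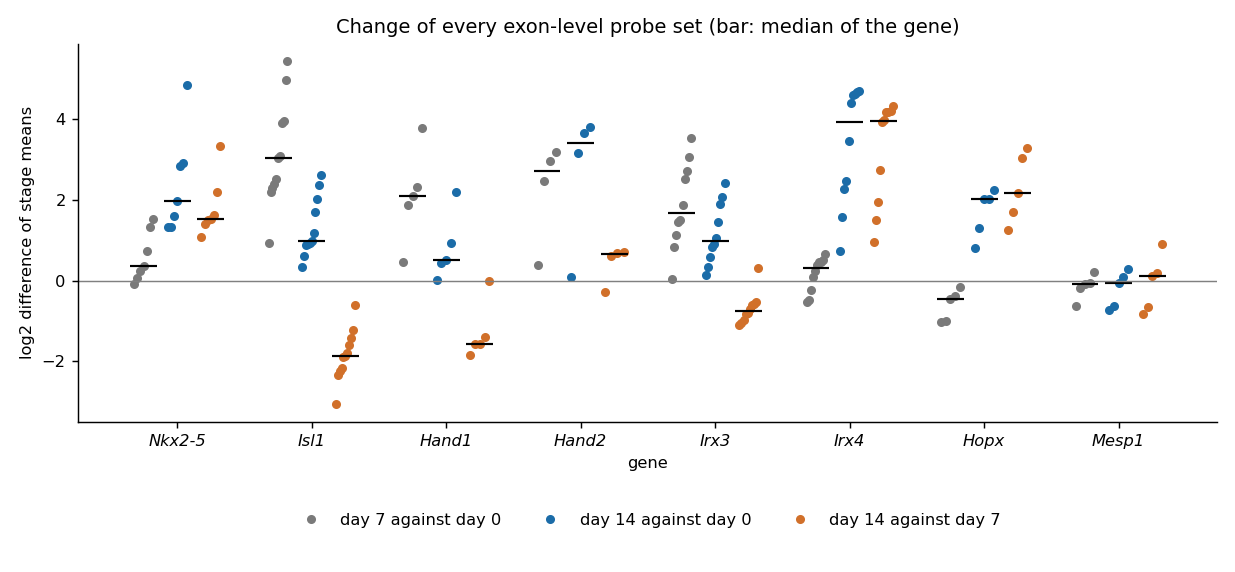
Log2 difference of stage means (vertical axis) for every exon-level probe set of each factor, by comparison. Points are probe sets and bars their median. Those of Isl1 lie above 0 at day 7 and below 0 from day 7 to day 14, and 1 probe set of Hand2 stays near 0 where the other 3 lie above 3 at day 14 against day 0.

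Exon usage, the signal of a probe set relative to the median of its gene in the same sample, was tested because the series was made to study splicing. After the filters on signal, 7, 12 and 21 probe sets of the factors could be tested from day 0 to day 7, day 0 to day 14 and day 7 to day 14. None reached both an adjusted p under 0.05 and a size of at least 1, nor did any of the 95498, 99106 and 100843 probe sets of all genes (0%). In limma 2, 6 and 4 of the factors' probe sets had an unadjusted p under 0.05. Of these, 2, 5 and 3 were probe sets of Nkx2-5, each taken relative to the same gene median, so they are not separate results. The share of all tested probe sets with such a p was not counted, so these counts have no baseline. Probe set 4623088 of Nkx2-5 had a relative difference of 2.10 ± 0.38 from day 0 to day 14 (limma across all tested probe sets, adjusted p = 0.701). No probe set of Isl1, Hand1, Irx4 or Mesp1 passed the filters. Without them all 57 were tested, none passed, and the lowest adjusted p was 0.0983, 0.0696 and 0.181.

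The samples of day 7 differed in ways that touched Hand1, Isl1 and Irx3. The Hand1 gap of 3.84 between them was exceeded by 7 of 23332 rows (0.03%), and all 5 of its probe sets were higher in replicate 1, by 1.97 to 5.67. Isl1 and Irx3 went the other way, with replicate 2 higher by 0.95 and 1.08, gaps that 6.28% and 4.68% of rows exceeded. The median gap over all rows was 0.23. Replicate 1 was higher in 3 of the 8 factors.

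Markers of some other cell types also differed between the day 7 samples, some lists higher in replicate 1 and some in replicate 2. Of 13 endoderm and yolk sac markers, 12 were higher in replicate 1, with a median gap of 1.10 and a mean level of 8.18 against 6.95, beside 6.17 in both ES cell samples. Ttr, a yolk sac and liver transport protein, was at 11.98 in replicate 1 and 7.64 in replicate 2. Of 16 mesenchyme, fibroblast and smooth muscle markers, 12 were higher in replicate 1, with a median gap of 0.94 and mean levels of 7.78 and 6.98. Among them the matrix protein genes Dcn (8.53 and 5.61) and Postn (9.90 and 7.46) differed by over 2.

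Of 12 endothelial markers, 8 were higher in replicate 2, with a median gap of -0.88 and mean levels of 7.87 and 8.60. Emcn, an endothelial sialomucin, was at 6.87 and 10.05. Of 9 trophoblast markers, 7 were higher in replicate 1, with a median gap of 0.23 and mean levels of 6.67 and 6.11. Cdx2, a caudal homeobox gene of trophoblast and posterior embryo, stood out at 9.97 and 6.77. The cardiomyocyte, pluripotency, neural and neural crest lists had median gaps of -0.12, -0.02, -0.08 and 0.08. Neural lists are given because Isl1 and Hand2 are also known from motor and sympathetic neurons. Of 18 neural and motor neuron markers, 1 rose and 3 fell from day 0 to day 7, and of 10 neural crest and sympathetic markers, 1 rose and 2 fell. By exon-level means Tubb3, a neuronal tubulin of the first list, also fell to day 7 (-1.85 ± 0.20, adjusted p = 0.00111) and then rose (1.72 ± 0.20, adjusted p = 0.00322).

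Of the 12 endothelial markers, 8 rose and 1 fell from day 0 to day 7 (median 2.21), with Cdh5, the endothelial cadherin, up by 4.63 ± 0.31 and Pecam1, an adhesion molecule, down (-1.59 ± 0.32). From there to day 14, 4 of them fell and none rose (median -2.31): Cdh5, Flt1, Kdr and Tie1. None was called from day 0 to day 14. Of the 16 mesenchyme, fibroblast and smooth muscle markers, 6 rose and 1 fell at day 7 (median 1.77), 1 rose from day 0 to day 14, Acta2, smooth muscle actin (7.13 ± 0.34), and 1 fell from day 7 to day 14, Pdgfrb. Of the 13 endoderm and yolk sac markers, 4 rose at day 7 (Gata6, Gata4, Sox17 and Foxa2, median 1.31) and 4 from day 0 to day 14 (median 1.29), where Alb and Afp, serum proteins of liver and yolk sac, were up by 5.79 ± 0.19 and 5.73 ± 0.33, and Gata4 and Gata6 also stand among the partner factors. Of the 9 trophoblast markers, Gata3 rose and Ascl2 and Tfap2c fell at day 7. Over the fits with 1 sample left out, the numbers that rose at day 7 were 3 to 9 (endothelial), 1 to 6 (mesenchyme) and 0 to 7 (endoderm), and 0 to 6 endothelial markers fell from day 7 to day 14. The part of these lists in the values of the 8 factors was not tested.

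**Figure D4:**
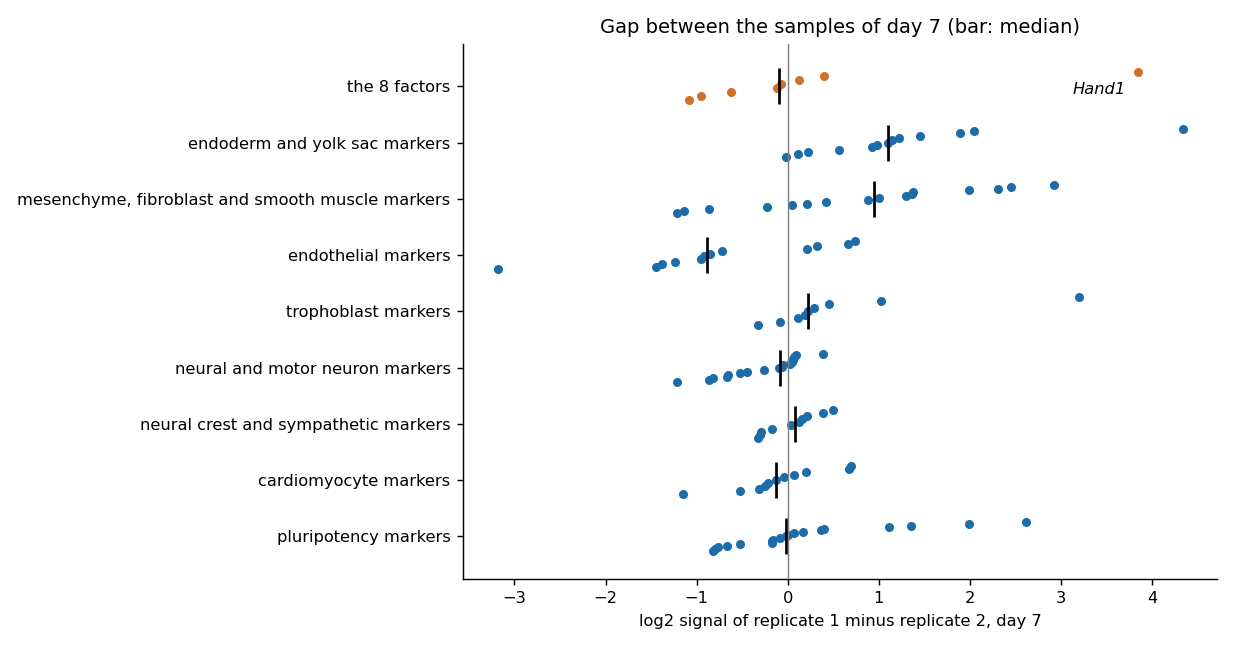
Log2 signal of embryonic body replicate 1 minus replicate 2 (horizontal axis) for the 8 factors and for 8 marker lists. Points are genes and bars medians. Hand1 lies at 3.84, the endoderm and yolk sac list has its median at 1.10 and the endothelial list at -0.88.

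Of 21 measured Iroquois, NK2-type and LIM-homeodomain relatives, 1 rose and none fell from day 0 to day 7, none was called from day 0 to day 14, and 1 fell from day 7 to day 14. That gene was Lhx1, a LIM-homeodomain gene of the early organizer, which changed by 2.10 ± 0.26 (adjusted p = 0.00985) and then by -2.02 ± 0.26 (adjusted p = 0.0220). These counts compare with the 5.35% of all rows called higher at day 7, and 3.32% and 3.13% called in either direction in the later comparisons. Leaving out any 1 sample, 0 to 2 rose at day 7 and 0 or 1 fell from day 7 to day 14. The list medians were 0.11, 0.10 and 0.02. Irx5, the neighbour of Irx3 in the IrxB cluster, was at 6.56 and 5.99, then 6.84 and 8.88, then 7.47 and 7.50, and its day 7 difference was 1.58 ± 0.65 (adjusted p = 0.201). Its day 7 samples differed by over 2 with replicate 2 the higher, the same order as in Irx3. Isl2, the paralogue of Isl1, differed by 0.71 ± 0.19 at day 7 (adjusted p = 0.0825).

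Among 13 bHLH relatives, E proteins and Id inhibitors with a gene-level row, 6 rose and none fell from day 0 to day 7, with a median of 0.37. The 4 with the largest change were Id2 (2.23 ± 0.46) and Id3 (1.93 ± 0.30), which bind E proteins and block their dimers, Tcf12 (2.10 ± 0.20), an E protein, and Tcf21 (1.84 ± 0.32), a bHLH factor of the epicardium. From day 7 to day 14, 3 fell and none rose: Id1 (-1.67 ± 0.21), Tcf4 (-1.52 ± 0.22) and Tcf12 (-1.34 ± 0.20), with a median of -0.65. At the gene level only Id1 was called from day 0 to day 14, and it fell by 1.46 ± 0.21 (adjusted p = 0.0285). With 1 sample left out, 1 to 4 rose at day 7, 0 fell from day 7 to day 14, and the Id1 call from day 0 to day 14 was kept only when a day 7 sample was the one left out. The 3 falls from day 7 to day 14 were also lost with only those stages fitted. Measured only through exon-level means, Tcf15, a bHLH factor of somites, fell from day 0 to day 7 (-2.65 ± 0.18, adjusted p = 0.000267), rose from day 7 to day 14 (1.85 ± 0.18, adjusted p = 0.00155) and was lower at day 14 than at day 0 (-0.80 ± 0.18, adjusted p = 0.0399). Twist2, measured in the same way, rose at day 7 (1.81 ± 0.45, adjusted p = 0.0306).

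Genes of the primitive streak and early mesoderm, the stage in which Mesp1 acts, were mixed. Of 15 measured, 3 rose from day 0 to day 7: Kdr, a VEGF receptor of mesoderm and endothelium (3.30 ± 0.32), Lhx1, and Fgf5 (1.62 ± 0.29). Nodal, a streak-inducing ligand, fell by 1.67 ± 0.17. From day 7 to day 14 Nodal rose by 1.76 ± 0.17, and Kdr (-2.84 ± 0.32) and Lhx1 fell. Only Fgf5 was called from day 0 to day 14, higher by 2.26 ± 0.29. Brachyury (T), a streak marker measured only through exon-level means, rose by 1.66 ± 0.22 to day 7 (adjusted p = 0.00259) and changed by -1.30 ± 0.22 from there to day 14 (adjusted p = 0.0134). Dkk1, a secreted Wnt inhibitor measured in the same way, rose by 3.78 ± 0.33 to day 7 (adjusted p = 0.000476) and then fell (-2.73 ± 0.33, adjusted p = 0.00336). Leaving out any 1 sample, 1 to 3 gene-level rows of the list rose and 1 fell at day 7, 0 or 1 rose from day 0 to day 14, and 0 or 1 rose and 0 to 2 fell from day 7 to day 14. Eomes, which switches on Mesp1 in the mouse, differed by 0.68 ± 0.22 at day 7 (adjusted p = 0.116).

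Of 18 measured second heart field genes, 4 rose and none fell from day 0 to day 7, with a median of 0.93. They were Wnt5a (3.38 ± 0.53), Mef2c (3.18 ± 0.41), Bmp7 (3.11 ± 0.30) and Fgf10 (1.81 ± 0.29), of which Mef2c and Fgf10 are known in the mouse to depend on Isl1. Only Mef2c (3.21 ± 0.41) and Bmp7 (3.0 ± 0.30) were called from day 0 to day 14. None was called from day 7 to day 14 (median -0.25), where 2 of 18 differences were above 0. With 1 sample left out, 1 to 7 rose at day 7 (7 without embryonic body replicate 1), 0 to 2 from day 0 to day 14 (0 without any one ES cell or cardiac body sample), and 0 to 3 fell from day 7 to day 14 (3 without embryonic body replicate 1). With low rows left out of the fit, 2 fell from day 7 to day 14. At day 7, 13 of the 18 were higher in replicate 2, as Isl1 was, with a median gap of -0.72.

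About as many partner factors of the 8 were called at day 14 as at day 7. Of 19 measured, 8 rose and none fell from day 0 to day 7 (median 1.71), led by Hey2, a Notch target (3.60 ± 0.48), Tbx20, a T-box factor (3.55 ± 0.72), Mef2c, and Gata6, a zinc finger factor (3.14 ± 0.43). From day 0 to day 14, 9 rose and none fell (median 2.47), led by Tbx5 (5.30 ± 0.53), Tbx20 (5.01 ± 0.72), Myocd, the coactivator of serum response factor (4.71 ± 0.22), and Smyd1, a muscle methyltransferase (3.91 ± 0.31). From day 7 to day 14, 3 rose: Tbx5 (4.10 ± 0.53), Smyd1 (4.06 ± 0.31) and Myocd (3.0 ± 0.22). Srf and Hdac2, through which Hopx acts, were not called from day 0 to day 14 (0.59 ± 0.22, adjusted p = 0.246, and -0.60 ± 0.28, adjusted p = 0.362). With 1 sample left out, 1 to 8 partners rose at day 7, 2 to 9 from day 0 to day 14, and 2 to 4 from day 7 to day 14. Tbx20 was at 11.59 and 9.59 in the day 7 samples, higher in replicate 1 as Hand1 was. The list was split at day 7: 10 of 19 were higher in replicate 1 and 9 in replicate 2, with a median gap of 0.02. Hey2, at 8.69 and 10.11, was higher in replicate 2.

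Genes known in the mouse to depend on one of the 8 were called mainly at day 14. Of 15 with a gene-level row, none rose and 1 fell from day 0 to day 7 (Mycn, -0.89 ± 0.18, median of the list -0.08). Actc1 of this list was measured only through exon-level means. In the limma fit of those means it rose by 2.66 ± 0.59 to day 7 (adjusted p = 0.0196). It rose by a further 5.47 ± 0.59 from day 7 to day 14 (adjusted p = 0.00227). The Mycn call was lost in each of the 6 fits with 1 sample left out and with only those stages fitted. Later, 9 of the 15 rose and none fell from day 0 to day 14 (median 3.78), and 9 rose and none fell from day 7 to day 14 (median 3.98). The largest differences from day 7 to day 14 were in Myl2, the ventricular myosin light chain (8.95 ± 0.18), Pln, which restrains the calcium pump (7.29 ± 0.38), Ankrd1, a sarcomere stress protein (6.43 ± 0.36), and Myl7, the atrial light chain (5.79 ± 0.29). Myl2, Myl7, Pln, Ryr2 and Nppa of this list also stand among the cardiomyocyte markers, all 11 of which rose in both comparisons. Others of the list were not called: from day 0 to day 14 the gap junction gene Gja5 differed by 0.43 ± 0.31 (adjusted p = 0.566), Bmp10 by 0.18 ± 0.24 (adjusted p = 0.791) and Nppb by 1.36 ± 0.31 (adjusted p = 0.0927). With 1 sample left out, 8 or 9 of the list rose in each comparison with day 14.

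Profiles like those of the factors were sought among all single-symbol rows. Likeness was the root mean square (RMS) difference over the 6 samples after each gene was set to its own mean, a description with no test. Nearest to Isl1 was Prom1, a membrane glycoprotein of progenitor cells (RMS 0.112), at 5.27 and 5.30, then 8.07 and 9.03, then 6.33 and 6.73. B930095G15Rik (0.203) and Colec12 (0.215) followed. Nearest to Irx4 were Xirp1 (0.168), an actin-binding protein of striated muscle, Hspb7 (0.179), a heart heat shock protein, and Ctnna3 (0.197), the alpha-catenin of the heart's cell junctions. Nearest to Hopx were Clip4 (0.183), Casq2 (0.231), the calcium store protein of heart muscle, and Pirt (0.237).

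Hand1 was nearest to genes that share its 1 high sample: Hoxc5 (0.258), which was at 7.52 and 4.26 at day 7 and between 4.22 and 4.79 in the other 4 samples, Cpn1 (0.258) and Reln (0.263). Nearest to Hand2 were Il10rb (0.169), Ifngr2 (0.195) and Cstad (0.244), and nearest to Irx3 were Ptbp2 (0.148), Septin6 (0.155) and Susd4 (0.155). Nkx2-5 was nearest to Trmt2b (0.116), Tmem53 (0.117) and Rbfox1 (0.118), and Mesp1 to the flat rows of Dnah5 (0.0234), Sox1ot (0.0243) and Rnf112 (0.0243). Among the 8 themselves the closest were Nkx2-5 and Hopx (0.512), then Isl1 and Irx3 (0.691).

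**Figure D5:**
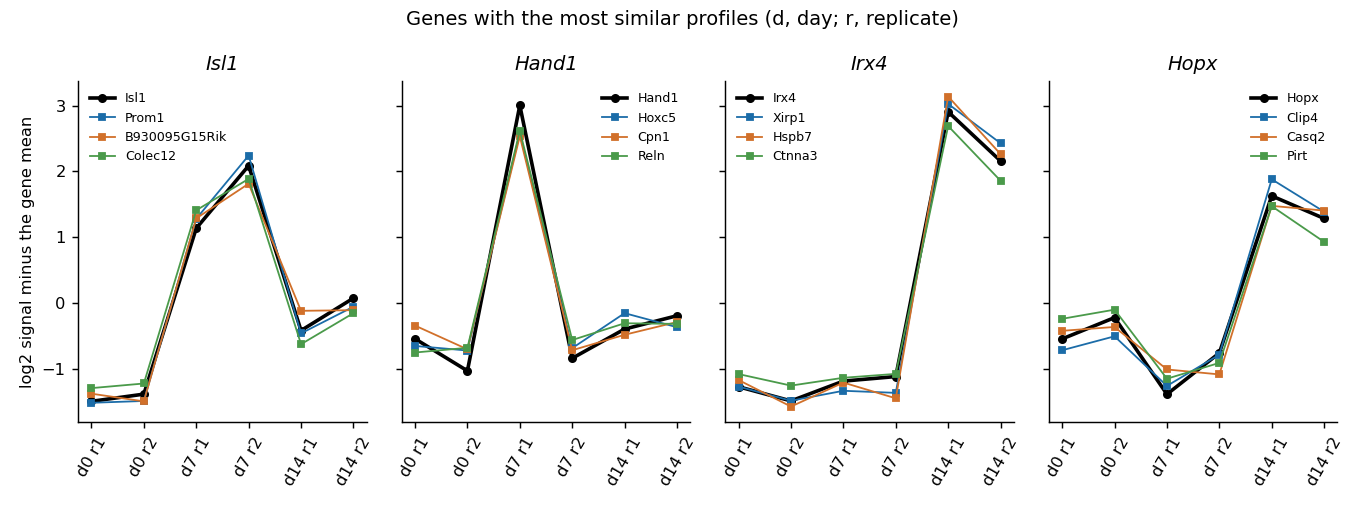
Log2 signal minus the gene's own mean (vertical axis) in the 6 samples for Isl1, Hand1, Irx4 and Hopx (black) and the 3 genes nearest to each. Isl1 and Prom1 peak in both day 7 samples, Hand1 and Hoxc5 in day 7 replicate 1 alone, and Irx4 and Hopx with their neighbours in the cardiac bodies.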

How the data were processed

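The deposited values are log2 signals, made by the authors. The submitters' processing notes name RMA and Affymetrix Power Tools, with versions not given in the sources used here. Core probe sets on mm9 were, per the labels, summarised to gene-level and exon-level tables. Neither table gives detection calls, a log2 signal understates changes of dim genes, and 6 arrays limit the precision. Symbols came from the platform annotation: 14996 gene-level rows had 1 symbol, 1019 several and 7317 none, and rows with several symbols were tested but not named. All rows were fitted in limma (version 3.58.1, R 4.3.3) by lmFit and eBayes, 2-sided, with 6 samples in 1 fit, with Benjamini-Hochberg adjustment over all rows and a call at an adjusted p under 0.05. Exon-level probe sets were averaged per symbol (16358 symbols) and fitted alike. Exon usage needed 4 or more probe sets, a gene median not below the 50th percentile of exon-level values in both stages, and a probe set mean not below the 25th in 1 of them. Fits were tested on simulated data with independent normal noise, which does not cover deviations that samples share or single outlying samples. The 8 factors and the gene lists were chosen with earlier results of these data known. All factors are named, with the 3 nearest profiles of each. From each list other than the cell type markers, up to 4 called genes with the largest change per comparison are named. Genes that make up counts of 5 or fewer are also named there. Called genes of the marker lists are named only in part. Genes named with no call, single marker genes, Brachyury and other genes given by exon-level means, and probe sets other than a factor's highest and lowest were chosen after their values were seen. Promoter sequences came from RefSeq (GRCm38.p6).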

Additional observations from a re-analysis of the deposited data

How the results depend on the processing

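Of 309 recomputed changes of the 8 factors, 265 kept their direction and their side of the threshold, 28 kept their direction and lost the call, 11 kept it and gained the call, and 5 turned. Those that turned were uncalled before: Hand1 from day 0 to day 7 (-0.0526 to 3.79 with 1 sample left out), Hand1 from day 7 to day 14 (-3.30 to 0.55), and Mesp1 from day 7 to day 14 (-0.0271 to 0.11, and -0.0549 by exon-level means). With 1 sample left out, the number of factors called was 0 to 2, 1 to 4 and 1 to 3 at the gene level from day 0 to day 7, day 0 to day 14 and day 7 to day 14, and 3 to 7 by exon-level means from day 0 to day 14. The 0 came without either ES cell sample. Such fits have fewer samples, and the lone sample of a stage is assumed to vary like the others. Leaving out a sample of the stage not compared gives the same fit as taking only the 2 stages compared, so the 309 are not all separate. Between day 7 and day 14 the call of Isl1 was gained under median centring (-1.82, adjusted p = 0.0435), quantile normalization (0.0452), the low-value filter (0.0424) and the replicate block (0.0471), and that of Nkx2-5 was lost under centring (0.0524) and with only those stages fitted (0.0762). The block left 2, 3 and 4 factors called, and Hopx lost its call from day 0 to day 14. Deviations of equal numbers correlated at 0.08 for days 0 and 7, 0.49 for days 0 and 14, and 0.09 for days 7 and 14. Equal numbers thus deviated partly alike in ES cells and cardiac bodies only, and the labels do not say what the numbers stand for. Over all rows, centring moved the median from day 0 to day 14 from -0.03 to -0.16 and the calls from 614 higher and 160 lower to 510 and 276. With only the stages compared in the fit, calls from day 7 to day 14 went from 493 higher and 237 lower to 238 and 72, and with 1 sample left out the rows called higher numbered 317 to 900, 138 to 475 and 116 to 238. Exon usage gave 0 calls for the factors under each setting tried, one of them, leaving out probe sets with no spread, chosen after seeing the data.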
